A study of Mus musculus with 5 samples.

Results

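The interferon regulatory factor family was read in endothelial cells of the mouse thymus before and after irradiation. The 8 genes followed were Irf1, Irf2, Irf3, Irf4, Irf5, Irf7, Irf8 and Irf9. Every probe set that the platform annotation assigned to these symbols was taken, whatever its values, which gave 14 of the 22626 probe sets that are not array controls and 8 of 12393 genes with a probe set of their own. The cells were CD45-negative, EpCAM-negative and VE-cadherin-positive cells sorted from female C57BL/6J mice aged 6 to 8 weeks, pooled from several mice to give enough RNA. The untreated group (day 0) had 3 arrays, and the irradiated group (day 4), given a sublethal 550 cGy to the whole body with no hematopoietic rescue, had 2. Both groups carry the same strain, sex and age. In the labels the cell type of the untreated arrays is thymic endothelial cells and that of the day 4 arrays CD45- thymic stromal cells, although the sort described is the same. Each value is a log2 signal from an Affymetrix MOE 430 A 2.0 array, so 1 unit is a doubling, and signals of different probe sets are not set against each other.

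Interferon regulatory factors are transcription factors that share a DNA-binding domain and recognise repeats of the bases GAAA in the promoters of interferon genes and of genes that interferons induce. Irf3 and Irf7 are activated by kinases downstream of nucleic acid sensors and switch on type I interferon genes. Irf9 is the DNA-binding part of ISGF3, the complex that carries the signal of the type I interferon receptor. Irf1 responds to interferon gamma and inflammatory signals, and Irf2 can antagonise it on shared sites. Irf4, Irf5 and Irf8 are best known from blood cells, where Irf8 directs monocyte, macrophage and dendritic cell development, Irf4 acts in lymphocytes and Irf5 in inflammatory macrophages.

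The promoters of Irf7, Irf8, Irf1 and Irf2, the last being the member that holds both motifs, are shown from RefSeq sequence (GRCm38.p6). The choice does not rank the members by their change. Only the bases outside the annotated gene are printed. All 8 members matched the RefSeq promoter table, with 11 windows between them because 3 genes have several start sites. Each window covers 250 bases before and 50 after a start site. They were searched on both strands for GAAA, any 2 bases and GAAA again, the core of the interferon response element, and for TTCNNNGAA, the element bound by STAT factors. Matches are in capitals.
Irf7, chr7:141266500-141266674, minus strand: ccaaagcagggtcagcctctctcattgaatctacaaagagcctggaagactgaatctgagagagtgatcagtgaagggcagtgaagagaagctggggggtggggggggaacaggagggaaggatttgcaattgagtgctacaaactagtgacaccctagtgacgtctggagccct
Irf8, chr8:120736108-120736357, plus strand: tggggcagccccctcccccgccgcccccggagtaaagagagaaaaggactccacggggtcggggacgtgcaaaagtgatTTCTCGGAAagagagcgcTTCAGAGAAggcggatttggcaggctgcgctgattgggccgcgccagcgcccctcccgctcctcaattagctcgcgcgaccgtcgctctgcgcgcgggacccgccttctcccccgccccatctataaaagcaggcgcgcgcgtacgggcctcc
Irf1, chr11:53769764-53770013, plus strand: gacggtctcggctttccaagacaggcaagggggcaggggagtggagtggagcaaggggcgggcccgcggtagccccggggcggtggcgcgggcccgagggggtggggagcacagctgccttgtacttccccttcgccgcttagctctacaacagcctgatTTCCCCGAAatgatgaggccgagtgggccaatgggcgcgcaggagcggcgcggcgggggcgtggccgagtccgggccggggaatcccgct
Irf2, chr8:46739495-46739744, plus strand: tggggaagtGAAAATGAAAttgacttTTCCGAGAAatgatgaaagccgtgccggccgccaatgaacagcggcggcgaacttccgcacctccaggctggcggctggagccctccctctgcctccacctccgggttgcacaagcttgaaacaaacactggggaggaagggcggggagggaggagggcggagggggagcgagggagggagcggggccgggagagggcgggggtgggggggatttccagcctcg
The interferon response element core was found in 1 of the 11 windows, that of Irf2, as GAAAATGAAA starting 241 bases before the start site. It occurs in 3.44% of the 32851 promoter windows in the table. The STAT element was found in 3 windows, against 8.3% of all windows. Irf1 holds it once, as TTCCCCGAA starting 90 bases before the start site, and Irf2 once, as TTCCGAGAA starting 224 bases before it. Irf8 holds 2 matches, TTCTCGGAA and TTCAGAGAA, which start 171 and 153 bases before the start site. The windows of Irf3, Irf4, Irf5, Irf7 and Irf9, and the further windows of Irf1 and Irf8, hold neither string of letters.

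The arrays were alike in the share of probe sets with a log2 signal above 4 (64.9% to 65.5%). Cdh5, the gene of VE-cadherin, read 11.51 to 11.64 at day 0 and 11.38 and 11.40 at day 4. Its change was -0.18 ± 0.094 (SE) and did not pass (limma adjusted p = 0.337). Another Cdh5 probe set, 1422047_at, read 5.82 to 6.29 over all arrays, and its groups overlapped. All 15 endothelial markers read were above 4 on every array. Ptprc, which encodes the CD45 that the sort excluded, still read 6.08 to 6.86 at day 0 and 6.38 to 6.68 at day 4. Markers of some other cells differed between the groups. The mean signal of 15 macrophage and monocyte markers was 5.55 to 6.25 at day 0 and 7.04 to 7.17 at day 4, and that of 13 thymocyte and T cell markers was 5.003 to 5.61 and 3.83 to 3.92. The mean of 8 B and plasma cell markers was 5.02 to 5.18 and then 4.34 to 4.57. That of 7 neutrophil markers was 4.23 to 4.38 and then 3.49 to 3.60, of 4 erythroid markers 4.55 to 4.61 and then 3.78 to 3.82, and of 10 thymic epithelial markers 6.15 to 6.69 and then 5.27 to 6.01. limma called 4 of 10 tested thymocyte and T cell markers lower (Rag1, Satb1, Ccr9 and Cd8b1). It called 3 of 6 tested B and plasma cell markers lower (Ms4a1, Cd79b and Jchain), while Cd22 differed by 0.49. S100a8 and S100a9 of 3 tested neutrophil markers and Alas2 of 2 tested erythroid markers were also called lower. The share called lower over all genes was 0.794%. None of the genes called lower would have reached the filter on the day 4 arrays alone, so these calls are a description. Of 9 tested epithelial markers 0 were called by limma, with 4 at an unadjusted p under 0.05 and a median change of -0.87. Fibroblast and pericyte markers, all above 4 on every array, had close means in both groups. The mean of 9 fibroblast markers was 8.00 to 8.17 at day 0 and 7.96 and 8.33 at day 4. That of 9 pericyte and smooth muscle markers was 8.64 to 8.72 and then 8.61 and 8.63. limma called 0 in either list. The mean of 6 platelet markers was 5.395 to 5.52 and then 5.68 and 5.74, with 0 of 5 tested called. The 3' minus 5' log2 signal of the actin control, a sign of RNA integrity, was 1.43 to 1.65 at day 0 and 1.35 to 1.39 at day 4. In such sorted bulk samples, fewer cells of a type and less RNA per cell cannot be told apart. Day 4 replicate 1 lay below replicate 2 for 14 of the 15 endothelial markers.

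Of the 14 probe sets, 12 passed a filter that asked for a log2 signal above 4 on at least 2 arrays, and both Irf4 probe sets did not. The comparison asked whether the family's expression differed 4 days after irradiation. Irf7 rose, the only call among the 12 tested probe sets, and 0 were called lower. The share called over all 15065 probe sets tested was 1.39%, with 0.717% higher and 0.677% lower. Of the 12, 4 had an unadjusted limma p under 0.05, against 19.4% of all probe sets. These were Irf7, both probe sets of Irf8, and Irf9. On 5 of the 12 both day 4 arrays lay above all day 0 arrays, against 18.9% of all probe sets, and on 1 both lay below, against 20.7%. The median log2 change of the 12 was 0.10, and that of all probe sets tested -0.0044. Of the 12, 9 had a positive change and 3 a negative one, and 49.2% of all probe sets had a positive change.

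**Figure D1:**
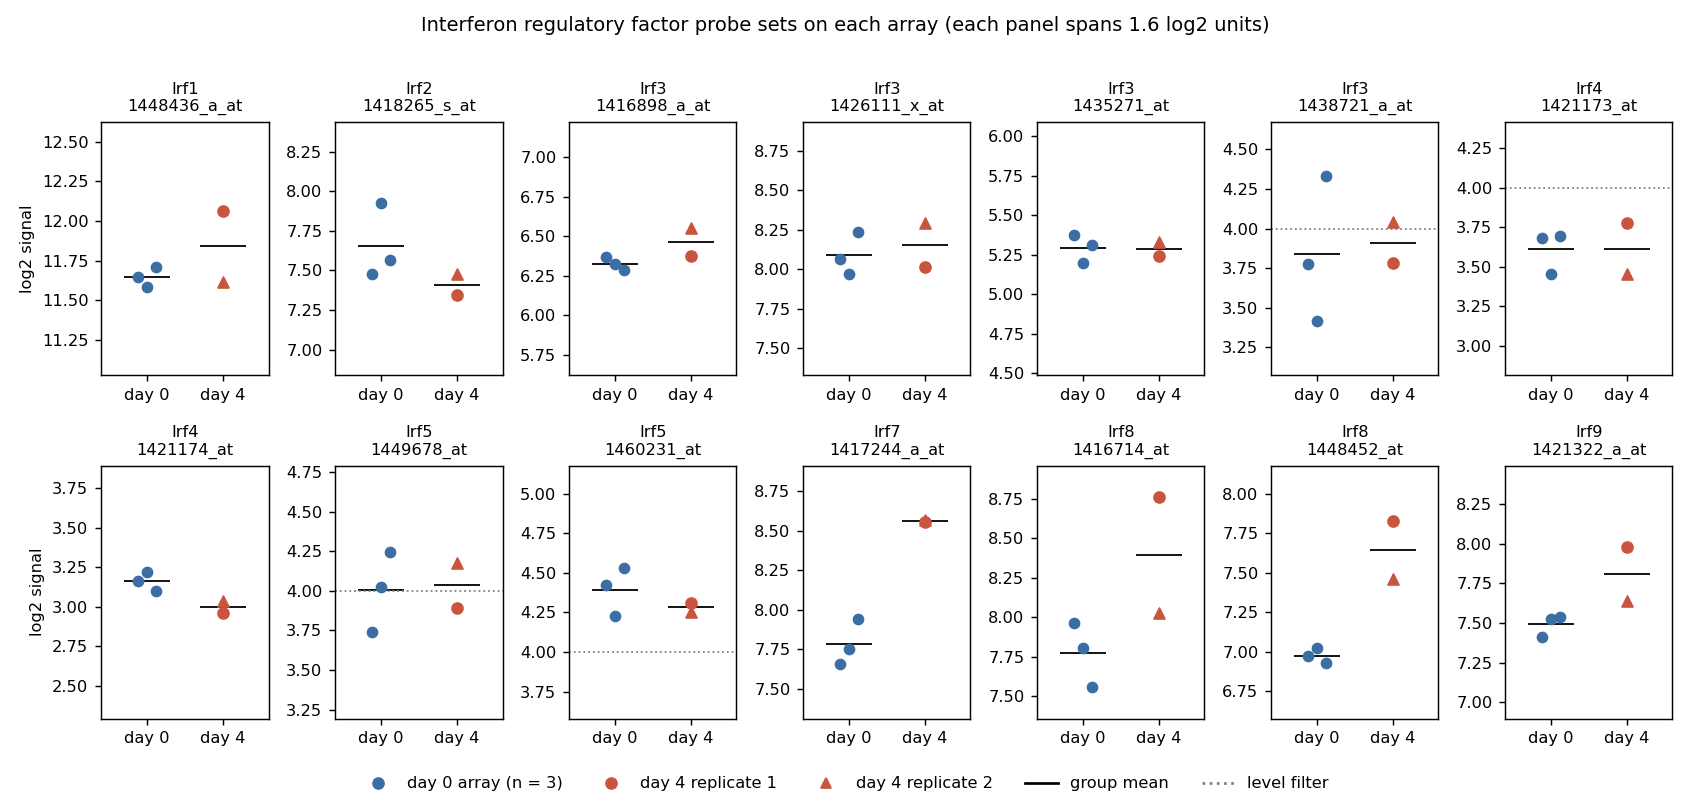
Log2 signal of the 14 interferon regulatory factor probe sets on each of the 5 arrays; blue points are day 0 arrays, the red circle is day 4 replicate 1, the red triangle day 4 replicate 2, the black lines are group means and the dotted line is the level filter at 4. The day 4 points of Irf7 lie together above all day 0 points, those of Irf8 lie above them but apart from each other, and both Irf4 probe sets stay under the filter on all arrays.

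Irf7, the factor that amplifies type I interferon production, had a log2 signal of 7.66, 7.75 and 7.94 at day 0. At day 4 it read 8.55 and 8.57. The day 4 arrays lay close together and clear of the highest day 0 array. The group means were 7.78 ± 0.15 (SD, n = 3) and 8.56 ± 0.012 (SD, n = 2), a log2 change of 0.78 ± 0.12 (SE) or 1.71-fold. This passed limma's test (adjusted p = 0.0447, 95% interval of the log2 change 0.49 to 1.06). Irf7 was read by a single probe set (1417244_a_at), so no other probe set checks it. The change lay between 0.71 and 0.86 in every one of the 13 alternative analyses, but the call was lost whichever array was left out (adjusted p = 0.0769 to 0.150) and with array weights (adjusted p = 0.0979). Over all alternatives the limma adjusted p ran from 0.0264 to 0.150.

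The genes whose centred profile over the 5 arrays was nearest to that of Irf7 were Trim16, Map3k20, Angpt2, Ei24 and Exoc4. Their root mean square differences from Irf7 were 0.053, 0.056, 0.065, 0.073 and 0.081 log2 units. Among the family, the nearest was the Irf8 probe set 1448452_at at 0.18, followed by Irf9 at 0.26. With 5 arrays this measure mainly finds genes with a step of the same height between the groups.

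Irf8, the myeloid lineage factor, was read by 2 probe sets that went the same way. Probe set 1448452_at read 6.97, 7.02 and 6.93 at day 0 and 7.83 and 7.46 at day 4. Both day 4 arrays lay above the tight day 0 values, with replicate 1 the higher. The log2 change of 0.67 ± 0.13 (SE), or 1.59-fold, did not pass (limma adjusted p = 0.0792, 95% interval 0.35 to 0.99). It passed without day 4 replicate 2 (change 0.85, adjusted p = 0.0493), and the adjusted p ran from 0.0493 to 0.207 over the alternatives. Probe set 1416714_at read 7.96, 7.81 and 7.56 at day 0 and 8.76 and 8.03 at day 4. Here replicate 1 stood well above the day 0 arrays and replicate 2 just above the highest of them. The change was 0.62 ± 0.24 (SE), with a limma adjusted p of 0.232 and a 95% interval of 0.041 to 1.20. Without day 4 replicate 1 it was 0.25. The gap of 0.74 between the day 4 arrays was exceeded by only 3.86% of all probe sets tested.

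Irf9, the DNA-binding subunit of ISGF3, read 7.41, 7.53 and 7.54 at day 0 and 7.98 and 7.64 at day 4. Both day 4 arrays were above all day 0 arrays, replicate 2 by little. Its change was 0.32 ± 0.13 (SE), or 1.25-fold, and did not pass (limma adjusted p = 0.257, 95% interval 0.0008 to 0.63). Without day 4 replicate 1 the change was 0.15.

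Irf1, the gamma interferon responder, had a signal of 11.64, 11.59 and 11.71 at day 0, already present without treatment. It read 12.06 and 11.62 at day 4. Replicate 1 was above all day 0 arrays and replicate 2 lay among them. The change of 0.19 ± 0.15 (SE) did not pass (limma adjusted p = 0.509, 95% interval -0.17 to 0.56), and it was -0.030 without day 4 replicate 1. Irf2, its antagonist on shared sites, had the only day 4 values below the day 0 values among the tested probe sets. It read 7.477, 7.929 and 7.563 at day 0 and 7.347 and 7.475 at day 4, so the groups were barely parted. The change was -0.25 ± 0.16 (SE), with a limma adjusted p of 0.427 and a 95% interval of -0.63 to 0.14. The name of its only probe set, 1418265_s_at, marks probes that can match transcripts of more than 1 gene.

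Irf3, the constitutive partner of Irf7 in switching on interferon beta, was read by 4 probe sets, none of which passed. Probe set 1416898_a_at read 6.368, 6.326 and 6.288 at day 0 and 6.375 and 6.555 at day 4, so both day 4 arrays were higher, replicate 1 barely. Its change was 0.14 ± 0.10 (SE), with a 95% interval of -0.11 to 0.38. Probe set 1426111_x_at, whose name marks probes that may cross-hybridise, read 8.07, 7.97 and 8.24 and then 8.01 and 8.29, and the groups overlapped. The change of 1435271_at was -0.0080 (95% interval -0.25 to 0.24), and its 5 values spanned only 0.18 log2 units. Probe set 1438721_a_at was above 4 on 2 arrays, 1 in each group, and its day 0 values alone spanned 0.92. The limma adjusted p of the 4 probe sets was 0.486 to 0.975. The 95% intervals of all 4 end below the 0.78 measured for Irf7, the highest at 0.72. The interval of Irf7 itself, 0.49 to 1.06, overlaps that of 1438721_a_at (-0.58 to 0.72) and lies above those of the others. These intervals do not show that Irf3 was unchanged, and the difference between the genes was not tested.

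Irf4 and Irf5 lay near the background. Irf4 was under the level filter on all 5 arrays with both probe sets, at 3.45 to 3.78 for 1421173_at and 2.96 to 3.22 for 1421174_at, and was not tested. Irf5 probe set 1460231_at read 4.42, 4.23 and 4.53 at day 0 and 4.31 and 4.25 at day 4, and the groups overlapped (change -0.11 ± 0.12 SE, limma adjusted p = 0.640). The other, 1449678_at, was above 4 on 3 arrays and changed by 0.031 ± 0.17 (SE). Signals this low mostly carry background, so they limit what can be said of both genes.

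**Figure D2:**
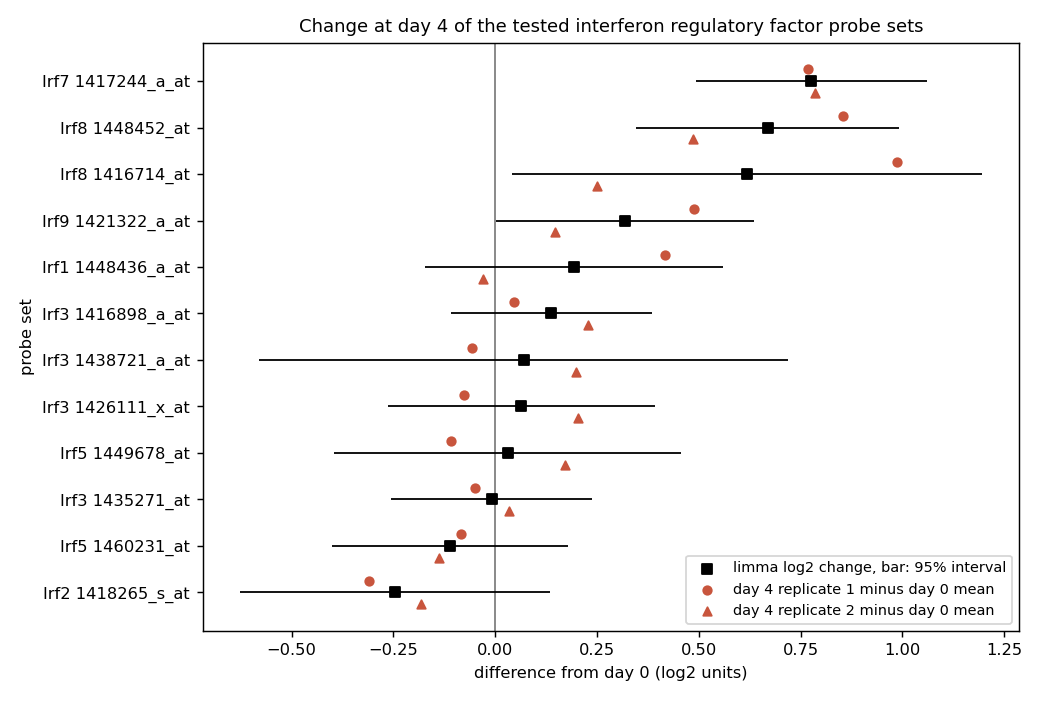
Log2 change at day 4 of the 12 tested probe sets, with black squares for the limma estimate, black bars for its 95% interval, and red circles and triangles for day 4 replicates 1 and 2 minus the day 0 mean. Irf7 has both arrays at 0.77 and 0.78, while replicate 1 is the higher for Irf8, Irf9 and Irf1, and replicate 2 is the higher for each Irf3 probe set.

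The day 4 arrays differed in their picture of the family. Measured from the day 0 mean, Irf7 stood at 0.77 on replicate 1 and 0.78 on replicate 2. For the Irf8 probe sets these values were 0.99 and 0.25 (1416714_at) and 0.85 and 0.48 (1448452_at). They were 0.49 and 0.15 for Irf9, and 0.42 and -0.030 for Irf1. The Irf3 probe sets ran the other way, at 0.047 and 0.23 for 1416898_a_at and -0.076 and 0.20 for 1426111_x_at. Irf2 was low on both, at -0.31 and -0.18. Over the 12 probe sets the median gap between the day 4 arrays was 0.27, against 0.19 over all probe sets tested. Markers of other cells differed between the same arrays. Replicate 1 was the higher for 7 of 9 tested thymic epithelial markers, by a median of 1.14, and for 7 of 9 fibroblast markers, by a median of 0.34. Epcam, the epithelial marker excluded in the sort, read 7.17 on replicate 1 and 5.67 on replicate 2. The part of these cells in the levels of the family was not tested.

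Macrophage markers, like Irf7 and Irf8, read higher on both day 4 arrays. Of the 15 read, 12 were tested and 3 were called higher (Cd163, Fcgr1 and Cd14), against 0.884% of all genes. All 12 had both day 4 arrays above all day 0 arrays, against 18.0% of all genes. Cd163 and Fcgr1 reached the level filter only through the day 4 arrays, so their calls and their place in both counts are a description. Cd14, above the filter on all 5 arrays, was 2.46-fold higher (limma adjusted p = 0.0344). Itgam and Ccr2 were under the level filter on every array. Cx3cr1 was above it on 1 array and was not tested, and its groups overlapped. Within day 0, the list mean was highest on replicate 1 (6.25) and lowest on replicate 2 (5.55), while Irf7 was lowest on replicate 1 and highest on replicate 3. Irf8 1416714_at was highest on day 0 replicate 1 and lowest on replicate 3, and Irf8 1448452_at was highest on replicate 2 (7.02), where the list mean was lowest, and lowest on replicate 3 (6.93). The part of macrophage signal in the levels of these genes was not tested. Of 10 dendritic cell markers, another home of Irf8, 6 were tested and 0 called by limma, with 2 at an unadjusted p under 0.05. These went opposite ways. Clec10a, a lectin that macrophages also carry, read 3.41 to 4.57 at day 0 and 5.87 and 6.09 at day 4 (change 2.16 ± 0.36 SE, limma adjusted p = 0.0554), and it reached the filter only through the day 4 arrays. Ccr7, a homing receptor also of T cells, differed by -1.31 ± 0.22 (SE, adjusted p = 0.0600). Of the 10, 4 were under the filter on every array, Xcr1 and Flt3 among them. Another 3, Zbtb46, Bst2 and Tcf4, were above it on every array, and their groups overlapped. Itgax was above it on 3 arrays, and its groups also overlapped.

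**Figure D3:**
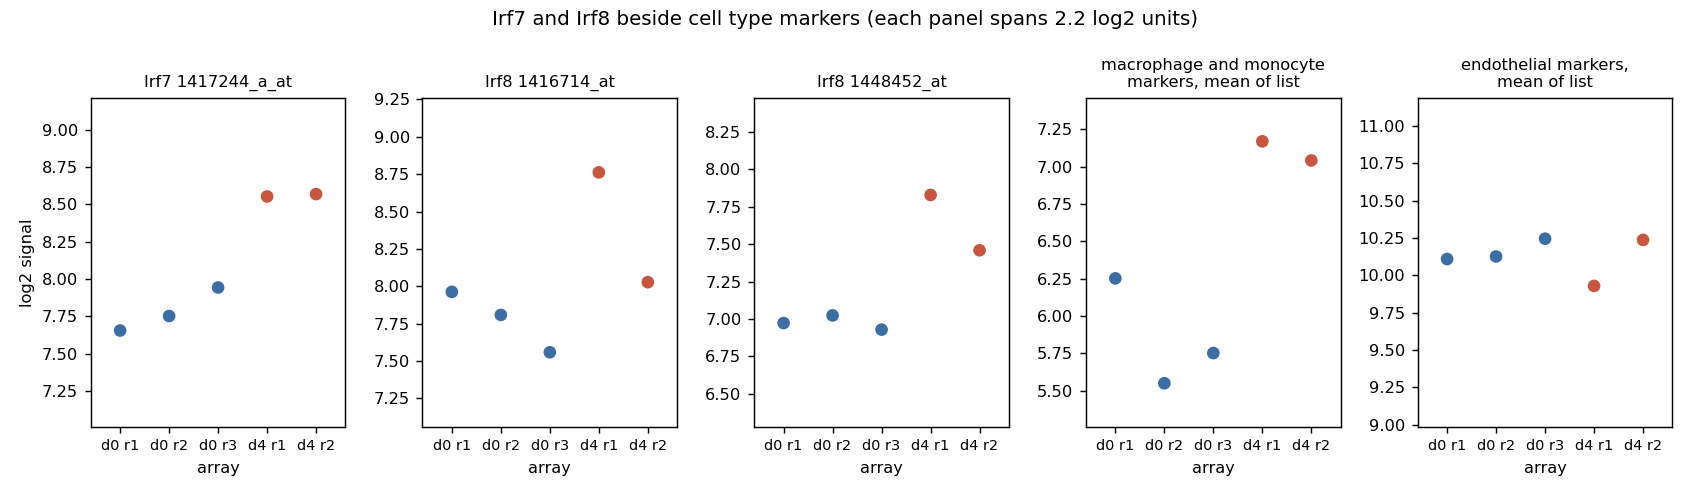
Log2 signal by array of Irf7, of both Irf8 probe sets and of the mean of the macrophage and monocyte markers (15 genes) and the endothelial markers (15 genes); blue points are day 0 arrays (d0) and red points day 4 arrays (d4), with r for replicate. Irf7, Irf8 and the macrophage mean are higher on both day 4 arrays. Among the day 0 arrays, Irf8 1416714_at and the macrophage mean are highest on replicate 1 and Irf7 on replicate 3. Irf8 1448452_at spans only 0.094 there.

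Genes upstream of the family were read from a list of each step, with 1 probe set a gene. For these genes the background was 1.68% called (0.884% higher and 0.794% lower), 20.1% with an unadjusted limma p under 0.05, 18.0% with both day 4 arrays above all day 0 arrays and 23.0% with both below, and the median change over 8940 genes was -0.023. Of the 67 genes tested in the 7 lists of the pathway, 0 were called by limma. Socs1, Stat2, Usp18 and Zbp1 each stand in a pair of lists and are counted in both.

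Interferon genes were at background. Of 10 read, 8 were under the level filter on all arrays, Ifnb1 and Ifng among them, with signals of 2.93 to 3.38 and 2.09 to 2.46. The 2 tested were Ifna1 (change 0.063 ± 0.11 SE) and Ifnz (-0.14 ± 0.16 SE). Of 15 interferon receptors, Janus kinases, STAT factors and their inhibitors, 0 passed, 4 had an unadjusted p under 0.05 and the median change was 0.18. Day 4 lay above day 0 for 6 of the 15 and below for 1. Jak2, a kinase of the gamma interferon receptor, read 9.13 to 9.22 at day 0 and 9.89 and 9.57 at day 4, a change of 0.55 ± 0.12 (SE, limma adjusted p = 0.0951). Its other probe set gave 0.84 (adjusted p = 0.114). Pias1, an inhibitor of cytokine signalling, differed by 0.34 ± 0.10 (SE, limma adjusted p = 0.161). Its other probe sets, 1455486_at and 1455611_at, gave only 0.14 and 0.029, and on both the groups overlapped. Stat2, the partner of Irf9 in ISGF3, named after its values were seen, differed by 0.43 ± 0.13 (SE, limma adjusted p = 0.162).

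Of 13 tested sensors, adaptors and kinases that activate these factors, 0 passed and 3 had an unadjusted limma p under 0.05, with a median change of 0.13. Tlr7, an endosomal RNA receptor that signals to Irf7, was under the filter on all day 0 arrays (3.63 to 3.95) and read 4.89 and 4.39 at day 4. It entered the test only through the day 4 arrays, where it is the higher, so its difference of 0.81 rests on background values and is a description. Myd88, the adaptor that links Toll-like receptors to Irf5 and Irf7, read 9.18 to 9.36 at day 0 and 9.64 and 9.57 at day 4 (change 0.32 ± 0.10 SE, limma adjusted p = 0.172). Tlr3, a receptor for double-stranded RNA that signals to Irf3, is named after its values were seen, as the third of these genes. It read 6.59 to 6.82 at day 0 and 6.29 and 6.42 at day 4 (change -0.35 ± 0.11 SE, limma adjusted p = 0.178), and its other probe set gave -0.29. Of the 13, 4 had both day 4 arrays above all day 0 arrays and 3 had both below.

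Of 9 tested partners and regulators, 0 passed and 2 had an unadjusted limma p under 0.05, with a median change of 0.13. Spi1, the myeloid factor that binds DNA together with Irf4 and Irf8, read 4.09, 4.15 and 4.33 at day 0 and 4.69 and 4.92 at day 4. All 5 values were little above the filter, and the change of 0.62 ± 0.12 (SE) did not pass (limma adjusted p = 0.0817). Batf3, which pairs with Irf8 in dendritic cells, differed by 0.53 ± 0.17 (SE, limma adjusted p = 0.178). Ikzf1, which encodes the lymphoid factor Ikaros, was under the filter on every array.

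Of 18 tested genes known as targets of ISGF3 and Irf7, 17 had a positive change, 9 had both day 4 arrays above all day 0 arrays and 1 had both below. None passed (0 by limma), 7 had an unadjusted p under 0.05, and the median change was 0.28. Oasl1, which restrains translation of Irf7, read 6.62, 6.50 and 6.50 at day 0 and 7.91 and 7.19 at day 4. Both day 4 arrays were clear of day 0, but the change of 1.01 ± 0.21 (SE) did not pass (limma adjusted p = 0.0852). Ifit1, which binds foreign RNA, read 9.23 to 9.41 at day 0 and 10.55 and 9.71 at day 4 (change 0.82 ± 0.24 SE, limma adjusted p = 0.158). Without day 4 replicate 2 both were called, Oasl1 at 1.37 (adjusted p = 0.0333) and Ifit1 at 1.24 (adjusted p = 0.0378). The median of the 18 above the day 0 mean was 0.38 on day 4 replicate 1 and 0.19 on replicate 2, against -0.050 and 0.0033 over all genes. Replicate 1 was the higher for 13 of the 18 (72.2%), against 43.8% of all genes.

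The 11 tested targets of Irf1 split. Of these, 6 had a positive change, 1 had both day 4 arrays above day 0 and 3 both below, 0 were called by limma, 3 had an unadjusted p under 0.05, and the median was 0.023. Psmb9, an immunoproteasome subunit, read 9.43, 9.44 and 9.74 at day 0 and 8.96 and 9.08 at day 4. It was lower on both day 4 arrays, and the change of -0.52 ± 0.13 (SE) did not pass (limma adjusted p = 0.120). Casp1, the inflammatory caspase, differed by -0.42 ± 0.11 (SE, limma adjusted p = 0.129). Gbp2 and Cd274, named after their values were seen, differed between the day 4 arrays. Gbp2, an interferon-induced GTPase, read 10.39 to 10.41 at day 0 and 11.06 and 10.14 at day 4, and Cd274, which encodes the checkpoint ligand PD-L1, 8.52 to 8.75 and then 9.50 and 8.62. Replicate 1 was the higher for 9 of the 11 (81.8%). Of the targets of Irf4 and Irf8, 3 were tested, 0 passed and 1 had an unadjusted limma p under 0.05, with a median of -0.040. That was Prdm1, a repressor of lymphocyte programmes (change 0.34 ± 0.10 SE, adjusted p = 0.158), while Nf1, a Ras inhibitor, gave -0.046. Cybb of the same list, named after its values were seen, was above the filter on 1 array and was not tested. It read 3.06 to 3.81 at day 0 and 4.69 and 3.93 at day 4, so its higher day 4 values rest on signals near background. Il12b was under the filter on every array.

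**Figure D4:**
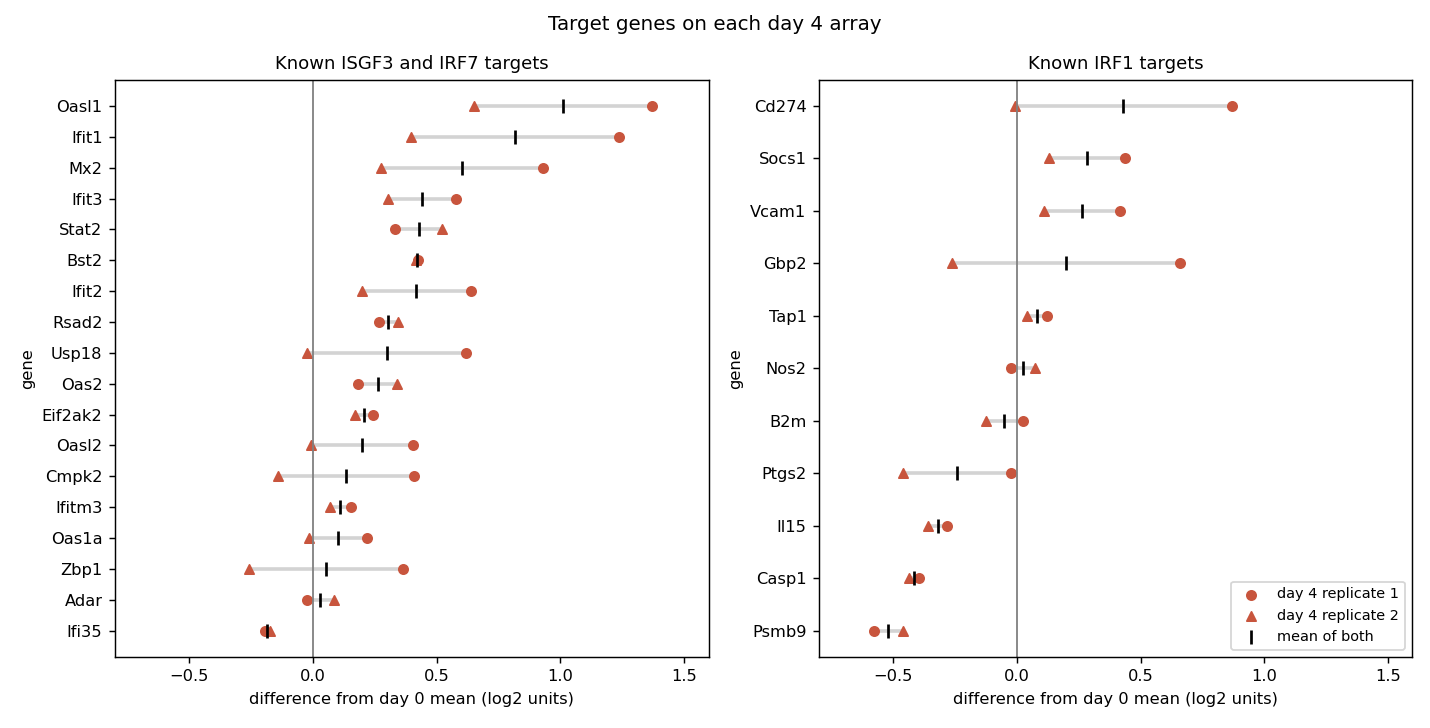
Difference from the day 0 mean, in log2 units, of 18 tested ISGF3 and Irf7 targets (left) and 11 tested Irf1 targets (right) on day 4 replicate 1 (circles) and replicate 2 (triangles), with a black tick at their mean; each line is a gene. Oasl1 and Ifit1 lead the left panel at means of 1.01 and 0.82, and Psmb9 and Casp1 lie lowest on the right at -0.52 and -0.42.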

How the data were processed

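RNA of endothelial cells sorted from mouse thymus was measured on 5 single-colour Affymetrix arrays, each of cells pooled from several mice. The deposited values are log2 signals per probe set, which the authors made with GCRMA, per the submitters' processing notes. GCRMA corrects background, normalizes arrays to a common distribution and summarizes probes, so a change shared by most genes would be hidden. The sources used here give neither its version nor whether the arrays were processed as 1 set. The log2 scale was read from the values (1.57 to 14.4, array medians 5.26 to 5.30). Of 22690 probe sets, 64 were controls, 20380 had 1 gene symbol, 691 several and 1555 none in the platform annotation. Of the 20380, 20351 matched the RefSeq gene table (GRCm38.p6) by Entrez identifier and 0 symbols changed. The files name no build, so coordinates are given only for RefSeq promoters. Protein sequences were not used here.

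Probe sets with a log2 signal above 4 on at least 2 arrays (15065) entered limma 3.58.1 (lmFit, eBayes; R 4.3.3), two-sided, day 4 minus day 0, without covariates, and called at a Benjamini-Hochberg adjusted p under 0.05 over all of them. There were 3 residual and 3.09 prior degrees of freedom. For lists, each gene was read from its probe set with the highest mean. The number of arrays limits the precision, and p-values measure the spread between pools, which may be partly technical. No label gave a batch or date. On simulated data for this comparison with 15065 probe sets and 200 of them changed, the fit recovered 95% of log2 changes of 1 and 99% of changes of 2, and 21 of its 215 calls were false. The share of false calls was thus above the 0.05 aimed at. The simulated noise was independent and of equal spread in both groups, without the marker differences between the day 4 arrays. It was drawn from variances already shrunk towards a common value, so it varied less between probe sets than the measured spread. These shares may therefore not hold for the measured arrays. Changes below 1 were not simulated, and every tested member changed by less than that. The promoter search and the figures used Python 3.11.15 and matplotlib 3.10.9.

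Every member probe set is named. Of each pathway list without a call, the 2 genes with the smallest p are named, and of marker lists those needed beside a result; other names are marked. The members and lists were chosen with earlier results of these data known. The alternatives were quantile normalization, median centring, no level filter or one at 6, 1 probe set a gene, weights per array, an intensity trend with robust fitting, a block for the replicate number, and leaving out each array.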

Additional observations from a re-analysis of the deposited data

How the results depend on the processing

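Of 147 log2 changes recomputed for the 12 tested probe sets under 13 alternatives, 131 kept their direction and their side of the threshold. The count of probe sets called higher was 1 in the main analysis and 0 with array weights, where Irf7 stood at 0.78 (limma adjusted p = 0.0979). It was also 0 with any day 0 array left out. As given above, the Irf7 call was lost whichever array was left out, a day 4 array included. Without day 4 replicate 2, Irf7 stood at 0.77 and Irf8 1448452_at at 0.85. Without day 4 replicate 1 they stood at 0.78 and 0.48. None was called lower in any alternative. The family's median ran from -0.0014 to 0.19 with an array left out. Signs turned only for changes that were never called. With an array left out, Irf1 ran from -0.030 to 0.42, Irf3 1435271_at from -0.056 to 0.034, 1426111_x_at from -0.076 to 0.20 and 1438721_a_at from -0.14 to 0.32, and Irf5 1449678_at from -0.11 to 0.17. With array weights, Irf3 1435271_at was 0.011. The negative values of Irf1 came without day 4 replicate 1, and those of 1426111_x_at without day 4 replicate 2. The cause was not tested.

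Of the 67 pathway genes, 0 to 2 were called higher with an array left out and 0 lower in any alternative. With the replicate block, 1 was called higher, Bst2 at 0.82 (limma adjusted p = 0.0410). The groups share only the numbers 1 and 2, and deviations from the group means correlated across probe sets with r = 0.20 and 0.084, and 2 pairs do not settle whether the numbers pair the samples. Under the block all calls numbered 401, against 210 without it. They numbered 53 with array weights, 126, 163 and 26 with day 0 replicate 1, 2 or 3 left out, and 14 and 178 with day 4 replicate 1 or 2 left out. Leaving out a day 4 array leaves 1, which is assumed to vary like the day 0 arrays. Irf4 and Irf5 are limited by signal near background.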
